A study of Mus musculus with 6 samples.

Results

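The imprinted Dlk1-Dio3 region on mouse chromosome 12 carries a dense group of miRNA genes. Its members were taken as every mouse probe set, passenger strands left out, whose miRNA number belongs to the cluster. This gave 61 of the 609 mouse probe sets on the array, and all 61 matched a RefSeq miRNA gene lying between Dlk1 and Dio3, 51 genes in total. The rule uses miRNA names and no signal; the cluster itself was picked for description with earlier results of these data known. Levels were compared between the lungs of 2 transgenic mice (TG) and 4 wildtype mice (WT), with 1 array for each mouse.

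In this region the protein-coding genes Dlk1, Rtl1 and Dio3 are expressed from the paternal chromosome. The long non-coding transcripts Meg3, Rian and Mirg are expressed from the maternal chromosome, and the miRNAs are processed from these maternal transcripts. The miRNAs are known for high levels in embryo, placenta and brain, and for low levels in most adult tissues.

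TG mice carried CC10-rtTA-IL13, in which the CC10 promoter, active in club cells of the airway epithelium, directs a doxycycline-dependent transactivator and thereby interleukin 13, a cytokine of type 2 inflammation. WT mice carried no transgene. Both groups were C57BL/6 animals aged 6 to 10 weeks, both drank doxycycline at 2 mg/mL for 7 days, and in both the left upper lobe of the lung was taken. A group with the transactivator but without interleukin 13 was not among the samples, so the effects of these transgene parts cannot be told apart. In whole-lobe RNA a change in the number of cells of a type and a change of RNA per cell cannot be told apart either.

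Values are the authors' log2 signals, and the base of the logarithm is inferred from their range. A probe set was called detected on an array when its signal exceeded 95% of the plant probe sets there, as these have no target in mouse lung. These limits were 4.22 and 4.25 on the TG arrays and lay between 4.27 and 4.33 on the WT arrays, so they were lower in TG. Of the 8 miRNAs listed as lung markers, a list picked with earlier results of these data known, 8 were detected on all 6 arrays. The other mouse probe sets were detected at 34.3% and 35.0% on the TG arrays and at 23.5% to 30.5% on the WT arrays. WT replicates 1 and 4 had highest signals of 11.5 and 11.4 over all probe sets, against 13.1 to 13.4 on the other 4 arrays. WT replicate 2 detected the most mouse probe sets of the WT arrays, 172 against 132 to 149. For miR-127, miR-379, miR-411, miR-494 and miR-541 the difference is also given without the WT array furthest from the others.

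The 8 members detected on at least 2 arrays are shown with their mature sequences, since all the tested differences concern them. Sequences and positions are those of RefSeq on GRCm38.p6, all on the plus strand, and capitals mark the seed, bases 2 to 8, with which a miRNA pairs to its targets. Where the array's name has no arm, the arm for which the older name stood is shown.
miR-127-3p: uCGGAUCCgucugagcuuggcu
miR-379-5p: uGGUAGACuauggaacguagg
miR-411-5p: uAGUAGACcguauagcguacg
miR-494-3p: uGAAACAUacacgggaaaccuc
miR-382-5p: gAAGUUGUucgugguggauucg
miR-134-5p: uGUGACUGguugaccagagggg
miR-541-5p: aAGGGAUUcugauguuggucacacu
miR-409-3p: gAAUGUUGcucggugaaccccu

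These 8 miRNAs have 8 different seeds. In the RefSeq table only miR-379-5p of these shares its seed with another mature miRNA of the region, miR-1193-5p, and miR-411-5p shares its seed with miR-7229-5p from elsewhere in the genome. For the other 6, no other mouse miRNA in the RefSeq table has the same seed. Over the whole region the 113 mature names carried 104 distinct seeds.

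The mature miRNAs lie at chr12:109592888-109592909 for miR-127-3p, in the part of the region antisense to Rtl1, and at chr12:109709065-109709085 for miR-379-5p, the first gene of the distal group. The other 6 follow miR-379 in the same distal group, from miR-411-5p at chr12:109710190-109710210 to miR-409-3p at chr12:109743204-109743225. Between the hairpins of miR-127 and miR-379 lie 116144 bases.

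The cluster was detected sparsely in WT lung and more widely in TG lung. TG replicates 1 and 2 detected 9 and 11 of the 61 members. WT replicates 1 to 4 detected 3, 5, 2 and 3. The groups did not overlap, with a mean of 10.0 ± 1.41 for the TG arrays (SD, n = 2) and of 3.25 ± 1.26 for the WT arrays (SD, n = 4), a difference of 6.75 members. The number detected was also higher in TG for other mouse probe sets, so the shares are set side by side. Cluster members were detected at 14.8% and 18.0% in TG and at 3.28% to 8.20% in WT. On every array that share was below the share of other mouse probe sets. With the highest of the 6 limits used for all arrays, TG detected 7 and 10 members and WT 2 to 4. With the 99th plant percentile the counts were 3 and 5 in TG and 1 to 2 in WT, and the difference was 2.5.

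**Figure D1:**
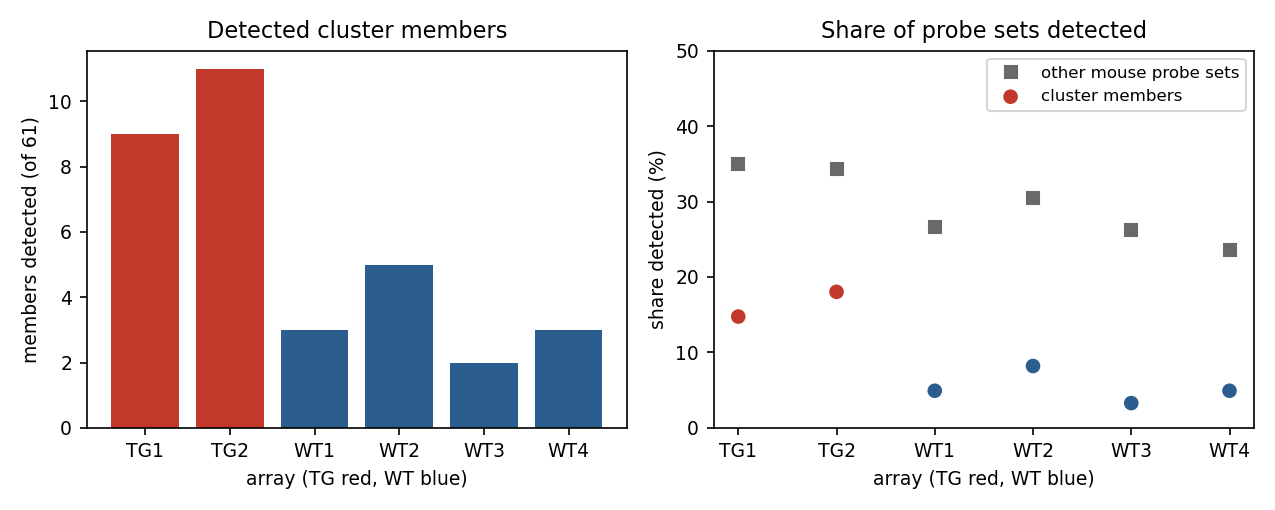
Number of the 61 cluster members detected on each array (left, bars) and the share of cluster members (circles) and of other mouse probe sets (grey squares) detected, in percent (right). TG1 and TG2 stand above all 4 WT arrays in both panels, and the cluster's share lies below that of other mouse probe sets on each array.

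Of the 61 members, 48 were detected on no array, 5 on 1 array and 8 on 2 or more, and these 8 entered the test. Only miR-494 was detected on all 6 arrays. miR-134, miR-379 and miR-382 were detected on both TG arrays and on 0 WT arrays. They passed the filter through the TG arrays alone. Such a pass favours members that are higher in TG, though the lower limits of the TG arrays can also bring it about. miR-127 and miR-541 were detected on both TG arrays and on 1 WT array each, so they too passed only with the help of the TG arrays. Counts and medians over the 8 are therefore descriptions.

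Across the 197 tested mouse probe sets, 6 were higher in TG, a background of 3.05% called higher, and 0 were lower, by limma with Benjamini-Hochberg adjusted p under 0.05. Of the 8 tested members, 2 were called higher, miR-127 and miR-379, and 0 lower. At an unadjusted p under 0.05 there were 4 members, all higher, beside a background of 17.3% of tested probe sets. Both TG arrays exceeded all WT arrays for 5 of the 8, beside 29.4% of the tested probe sets. Over all 61 members without the filter it was 8, or 13.1%, beside 14.3% of the 609 mouse probe sets, so that count is near the background. The median difference (TG minus WT, log2) was 0.72 over the 8 and 0.21 over the 197. Detection on 4 or more arrays held for 3 of the 8 and for 144 of the 197. Shares and medians of the 8 and of the 197 are thus not like for like.

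miR-127 in mouse is encoded antisense to Rtl1 and directs cleavage of the Rtl1 transcript. Its log2 signal was 6.21 and 6.92 on the TG arrays and 4.18, 5.28, 4.22 and 4.32 on WT replicates 1 to 4. Both TG arrays lay far above all WT arrays. Among the WT arrays only replicate 2 detected the mouse probe set, and replicate 4 lay just under its limit of 4.33. The mean was 6.56 ± 0.50 for the TG arrays (SD, n = 2) and 4.50 ± 0.52 for the WT arrays (SD, n = 4). miR-127 rose by 2.06 ± 0.38 (SE), with a 95% interval from 1.18 to 2.94 and an adjusted p of 0.0428 by limma. This was the largest difference among the 197 tested probe sets, 4.18-fold as measured and 4.04-fold with values under the limit set to the limit. Without WT replicate 2 the difference was 2.32 and the adjusted p 0.00961.

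The call for miR-127 depended on single arrays. The adjusted p by limma was 0.184 without TG replicate 1 and 0.457 without TG replicate 2. Among the WT arrays it was 0.110 with replicate 1 left out and 0.103 with replicate 3 left out. In the fit of all 609 mouse probe sets without the filter it was 0.0646. Over the 18 alternatives in which miR-127 was tested, the adjusted p ran from 0.000898 to 0.457 and the difference from 1.62 to 2.41.

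The hairpin of miR-127, at chr12:109592846-109592915, is shown because the array also carries its other arm. The 3p arm is in capitals and spans bases 43 to 64.
Mir127: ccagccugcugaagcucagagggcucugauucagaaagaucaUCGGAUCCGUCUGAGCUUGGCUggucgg
The passenger strand of this hairpin, named miR-127-star on the array, was detected on 0 arrays. Its signals ran from 3.80 to 3.99 in WT and were 4.11 and 3.95 in TG.

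miR-379 heads the distal miRNA group of the region, which in mouse is known for a part in metabolic adaptation after birth. Its signals were 4.98 and 5.53 in TG and 4.12, 3.87, 4.13 and 4.14 in WT replicates 1 to 4. All 4 WT values lay under their detection limits and both TG values well above. miR-379 rose by 1.19 ± 0.25 (SE), with a 95% interval from 0.61 to 1.76 and an adjusted p of 0.0478 by limma. The difference was 2.28-fold as measured and 1.94-fold with WT values set to the limit. Since miR-379 entered the test through the TG arrays alone, the fit of all 609 mouse probe sets without the filter stands beside this call, and there the adjusted p by limma was 0.0550, which misses the threshold.

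For miR-379 too the call ended without single arrays, with adjusted p by limma of 0.110, 0.113 and 0.0564 when WT replicate 1, 3 or 4 was left out. It was not tested without either TG array, since a single TG array then detected it. Without WT replicate 2 the adjusted p was 0.0263 and the difference 1.12. With arrays centred on their tested median, which shifts the differences by -0.44, the difference was 0.75 and the adjusted p 0.264. Over 16 alternatives the adjusted p ran from 0.0121 to 0.264.

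miR-134, a miRNA of neurons that in rat limits dendritic spine size, had signals of 4.65 and 4.99 in TG and 4.09, 3.84, 4.10 and 4.03 in WT. The groups did not overlap, and every WT value lay under its limit. The difference of 0.80 ± 0.23 (SE), with a 95% interval from 0.28 to 1.33, did not pass, with an adjusted p of 0.0974 by limma. It was 1.75-fold as measured and 1.43-fold with the limit. The adjusted p was 0.0282 with a mean-variance trend and 0.0313 with array weights, the only 2 of 15 alternatives in which it passed, and reached 0.486.

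miR-541 had signals of 4.62 and 5.05 in TG and 4.04, 4.51, 4.23 and 3.91 in WT, where only replicate 2 exceeded its limit. The groups were separate, though TG replicate 1 and WT replicate 2 were close. The difference of 0.66 ± 0.27 (SE), with a 95% interval from 0.05 to 1.28, did not pass (adjusted p of 0.231 by limma). Without WT replicate 2 it was 0.78 with an adjusted p of 0.0832 by limma.

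miR-382 had signals of 4.29 and 4.51 in TG and 3.93, 4.17, 4.20 and 3.80 in WT, close to the limit in both groups. With WT values set to the limit the groups differed by 1.07-fold, and TG replicate 1 lay under the limits of WT replicates 1 and 4. The measured difference of 0.38 ± 0.23 (SE), with a 95% interval from -0.17 to 0.92, did not pass (adjusted p of 0.400 by limma) and was -0.06 with arrays centred on the tested median.

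miR-494 was measured at 6.91 and 6.41 in TG and at 5.25, 5.36, 6.04 and 6.92 in WT replicates 1 to 4. WT replicate 4 reached the level of TG replicate 1, so the groups overlapped, and the WT arrays spread over more than the difference between the means. That difference was 0.77 ± 0.47 (SE), with a 95% interval from -0.33 to 1.86 and an adjusted p of 0.400 by limma. Without WT replicate 4 it was 1.11 with an adjusted p of 0.0793.

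miR-409-3p had signals of 4.67 and 4.48 in TG and 4.42, 4.40, 4.10 and 4.54 in WT, with overlapping groups. The difference of 0.21 ± 0.23 (SE), with a 95% interval from -0.32 to 0.74, did not pass (adjusted p of 0.684 by limma). It was -0.23 with arrays centred on the tested median.

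miR-411 was the tested member with a negative difference. Its signals were 4.25 and 4.35 in TG and 4.62, 4.24, 4.50 and 5.54 in WT replicates 1 to 4. WT replicate 4 was the highest and WT replicate 2 lay level with TG replicate 1, so the groups overlapped. The difference of -0.42 ± 0.37 (SE), with a 95% interval from -1.27 to 0.43, did not pass (adjusted p of 0.586 by limma). Without WT replicate 4 it was -0.15.

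**Figure D2:**
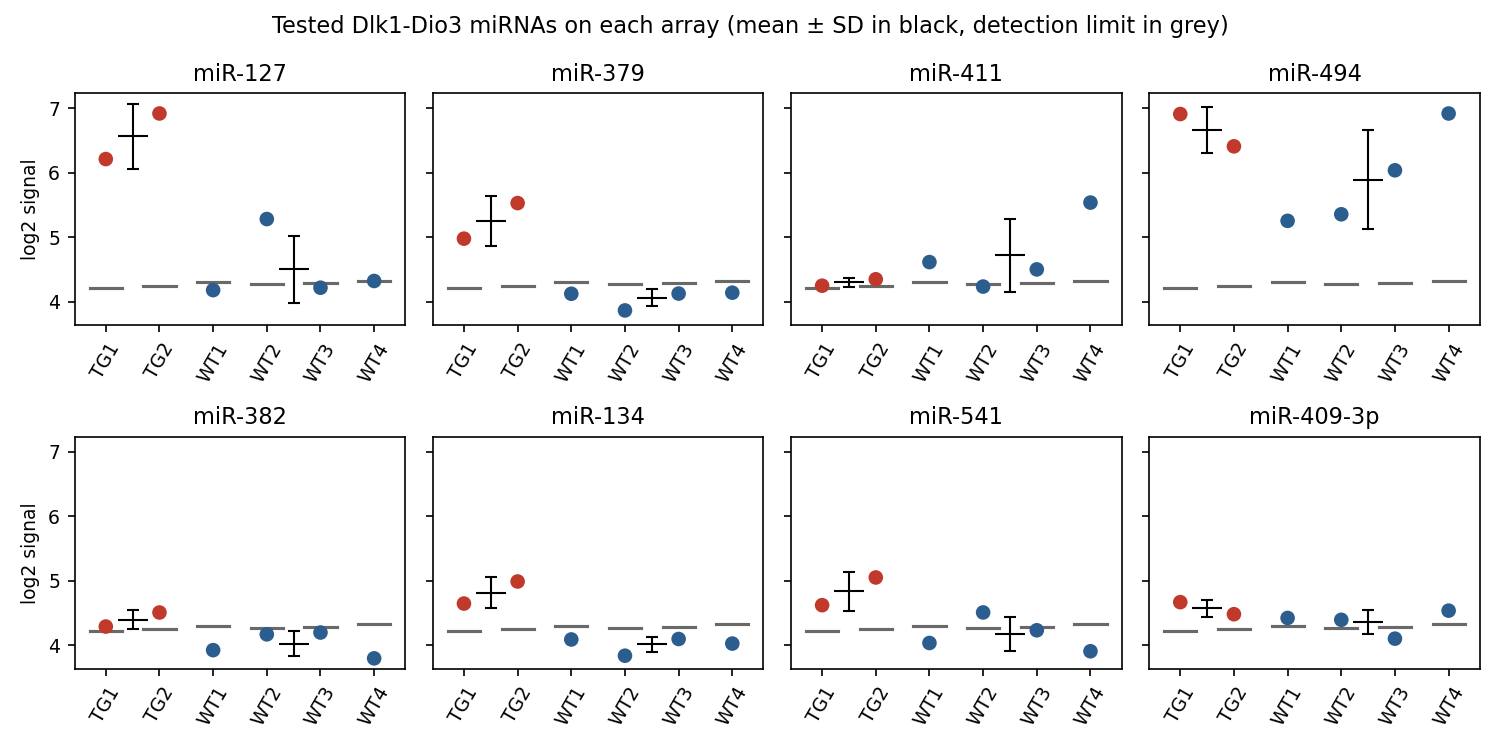
Log2 signal of the 8 tested members on each array, in gene order, with TG in red and WT in blue, the group mean ± SD in black (n = 2 and 4) and each array's detection limit as a grey line. miR-127 and miR-379 are far above the limit on the TG arrays only, apart from miR-127 at 5.28 on WT replicate 2, while miR-494 and miR-411 are high on WT replicate 4.

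miR-379 and miR-411 are neighbouring genes, 1049 bases apart with 0 miRNA hairpins between them, and are similar in sequence. Their hairpins are shown because differences of opposite sign were measured for them, with the 5p arm in capitals, at chr12:109709060-109709125 and chr12:109710175-109710256.
Mir379: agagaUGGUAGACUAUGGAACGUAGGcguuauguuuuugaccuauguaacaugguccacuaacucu
Mir411: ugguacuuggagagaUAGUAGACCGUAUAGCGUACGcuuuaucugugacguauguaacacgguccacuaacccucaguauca
Compared base by base from the 5′ end, 14 of 21 bases of the 5p arms are identical. Within the seed they differ by G2A alone, with the base of miR-379-5p written first. The 3p arms of these hairpins share the seed AUGUAAC.

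The difference between both signals within an array does not change when the array is scaled as a whole. miR-379 minus miR-411 was 0.73 and 1.18 on the TG arrays and -0.49, -0.37, -0.37 and -1.40 on WT replicates 1 to 4. The TG values exceeded the WT values. The value 0 has no meaning here, since the signals come from different probe sets, and all 4 WT values of miR-379 lay under their limits, as did miR-411 on WT replicate 2, so the WT differences are taken against background. This pair was picked after its values had been seen, so no test is given.

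The third gene of the distal group, Mir299a, was represented above the limit by its passenger strand. The signals of miR-299-star were 4.11 and 4.21 in TG and 4.44, 4.07, 4.03 and 4.92 in WT replicates 1 to 4. As with miR-411, WT replicates 4 and 1 were the highest. The difference of -0.21 ± 0.30 (SE) did not pass (adjusted p of 0.749 by limma). The rat probe set of miR-299 was at 5.10 on WT replicate 4 and between 3.95 and 4.30 elsewhere.

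By place, the part from Meg3 up to Rian held 16 members, of which 2 were detected on any array and 1 was tested, miR-127. The part from Rian up to miR-379 held 4 members, and 0 were detected. The part from miR-379 outwards held 41 members, of which 11 were detected on any array and 7 tested. The medians of the differences over all members of the 3 parts were 0.04, 0.00 and 0.03 in this order. Most of these members gave background signals only, so the medians say nothing of their levels.

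**Figure D3:**
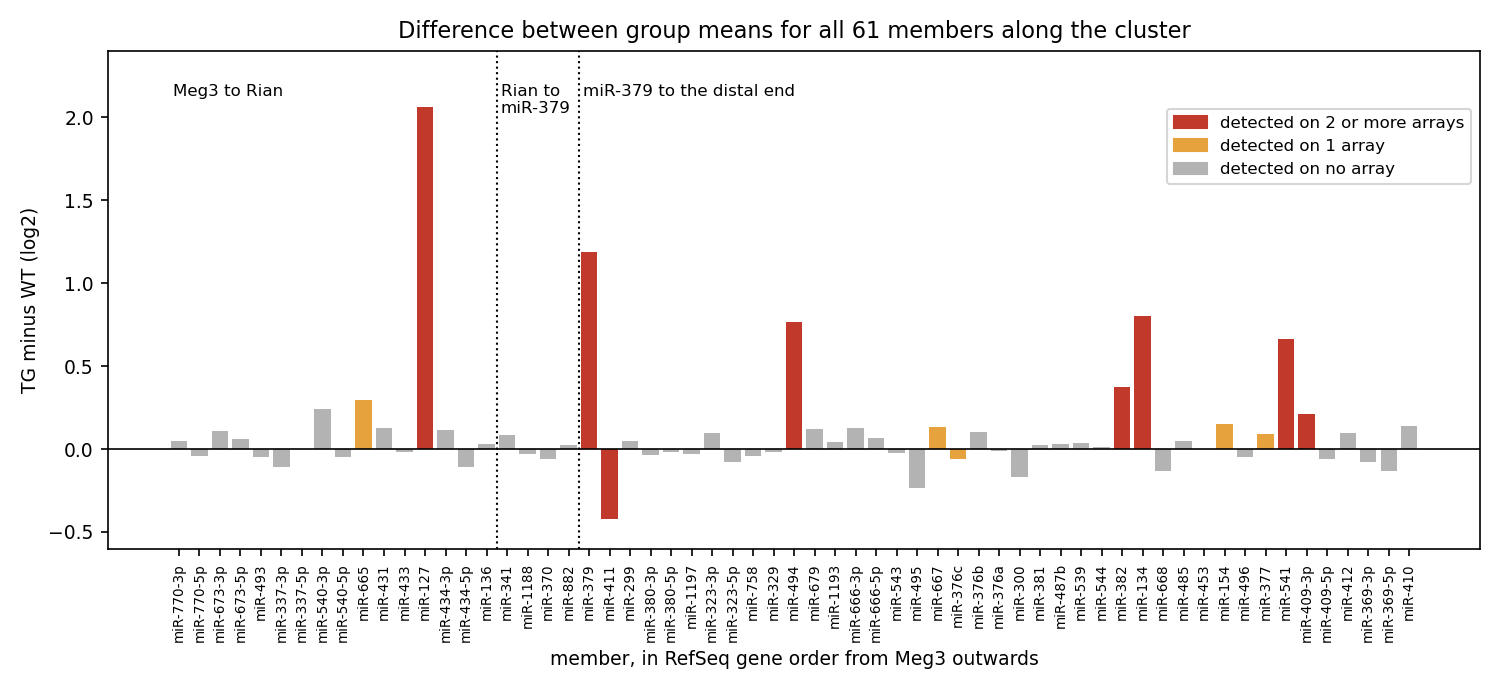
TG minus WT difference of group means (log2) for all 61 members in RefSeq gene order from Meg3 outwards, coloured by the number of arrays that detected the member, with dotted lines at Rian and miR-379. The differences above 0.5 belong to miR-127, miR-379, miR-494, miR-134 and miR-541, and they are separated by undetected members.

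The 5 members detected on a single array stayed close to the limit. miR-154, miR-377, miR-665 and miR-667 were detected on 1 TG array each and miR-376c on WT replicate 2. The highest was miR-667 at 4.50 on TG replicate 2, and its other 5 signals ran from 4.11 to 4.25. miR-377 reached 4.34 on TG replicate 1 and miR-154 reached 4.33 on TG replicate 2. miR-665 reached 4.25 on TG replicate 2 and miR-376c 4.29, each less than 0.02 above its limit. Such signals give no settled level.

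The 48 members detected on no array include the mouse probe sets of miR-136, miR-431, miR-433 and miR-434, which in mouse are encoded antisense to Rtl1 like miR-127. They also include miR-300, miR-381, miR-410, miR-485 and miR-495 of the distal group. Their differences were above 0 for 24 and below 0 for 24, with a median of 0.00 and a range from -0.24 to 0.24. This is the range that background signals gave here. Those nearest the limit were miR-376b, miR-412 and miR-337-5p, which came within 0.02 of it on their highest array. Just inside the filter stood miR-382, whose 2 detected values exceeded the limit by at most 0.26.

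Over all 61 members the differences were above 0 for 35, or 57.4%, with a median of 0.03. Over the other 548 mouse probe sets they were above 0 for 51.3%, with a median of 0.00. Of the 61 differences, 5 were above 0.5, all of them among the tested members.

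The array carries other readouts of the same hairpins. Of the 13 passenger strands of the cluster, 1 was tested, miR-299-star. Of the other 12, miR-382-star and miR-485-star were detected on TG replicate 2 alone, at 4.31 and 4.28. The array's 53 probe sets named 14q are designed on the human box C/D small nucleolar RNAs of this region, which in mouse are encoded in Rian. They were detected on 0 arrays, with signals from 3.74 to 4.22. How well these human designs bind mouse RNA is not known from the files.

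Probe sets named for other mammals measure the same 6 RNA samples again and add no animals. For miR-127 there were 12, all detected on at least 2 arrays, and for all 12 both TG arrays exceeded all WT arrays. Their differences ran from 1.82 to 2.78, with a median of 2.15. Of these 12, 11 were detected on at least 1 WT array. The 4 for miR-379 had differences from 0.73 to 1.10, and for all 4 the TG arrays exceeded the WT arrays. Of these 4, 2 were detected in WT. For these miRNAs the direction was thus the same on every probe set of the name.

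Among the members that did not pass, 6 of 7 probe sets for miR-134 were detected on at least 2 arrays, with differences from 0.37 to 0.69. The 4 for miR-411 all had negative differences, from -0.40 to -0.11. WT replicate 4 was again the highest array for the dog, human and rhesus macaque probe sets of miR-411, at 5.69, 5.61 and 5.01. For the rat probe set it was WT replicate 1, at 5.64.

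The 3 for miR-494 differed by 0.09 to 0.90. Of the 4 for miR-382, the 2 detected on at least 2 arrays differed by 0.37 and 0.67, and the other 2 by -0.23 and 0.48. Of the 2 for miR-541, the detected one differed by 1.07 and the other by -0.00067. Of the 3 for miR-409-3p, the 2 detected on at least 2 arrays fell on both sides of 0, at -0.11 and 0.15, and the third was at -0.12. Of the 200 probe sets of other mammals for all names of the cluster, 41 were detected on at least 2 arrays, and 34 of these carry the name of a tested member. The other 7 were the rat probe sets of miR-299, miR-329, miR-337, miR-377 and miR-434, the dog probe set of miR-409 and the human probe set of miR-485-3p. Their differences ran from -0.31 to 0.04, and apart from rat miR-299 their highest signals were between 4.31 and 4.66.

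**Figure D4:**
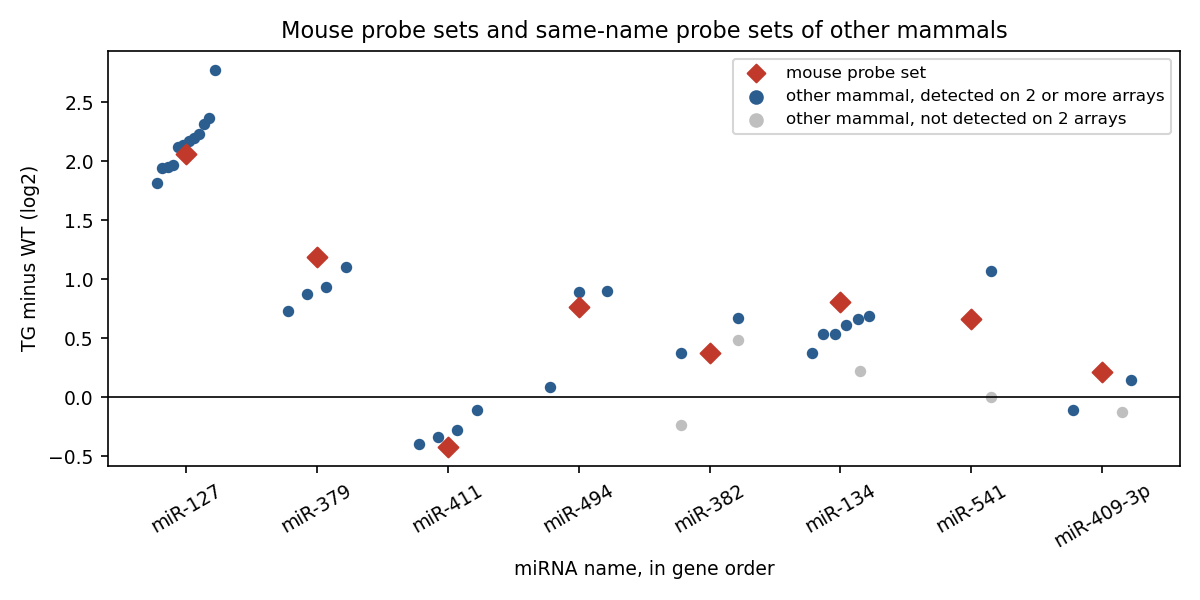
TG minus WT difference (log2) of the mouse probe set (red diamonds) and of same-name probe sets of other mammals (blue where detected on at least 2 arrays, grey otherwise) for the 8 tested members. The miR-127 points lie between 1.82 and 2.78 and the miR-379 points between 0.73 and 1.19, while all miR-411 points are below 0.

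Markers of cell types were measured on the same arrays. The 5 neuronal markers, from cells in which this cluster is abundant, had 0 tested members, with miR-9, miR-124, miR-129-5p and miR-219 detected on 0 arrays. The log2 of their summed signal was 6.27 to 6.34 in TG and 6.20 to 6.28 in WT. With 4 of the 5 undetected, these sums are mostly background and give no marker level. Of the 6 striated muscle markers 1 was tested and 0 called, and 3 were detected on 0 arrays. Their sums, also mostly background, were 6.57 to 6.64 in TG and 6.61 to 6.74 in WT.

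Of the 7 leukocyte markers 5 were tested, 4 with positive differences, and 0 passed. Their sums were 8.75 to 8.98 in TG and 8.02 to 8.52 in WT, without overlap, while miR-142-3p and miR-142-5p were detected on 0 arrays. The highest signal among them was that of miR-342-3p, at 8.21 and 7.78 in TG and 6.53 to 7.31 in WT. The negative difference was that of miR-223, at -0.27. The 8 epithelial markers, 5 of them with positive differences and 0 past the threshold, had sums of 10.2 to 10.3 in TG and 9.65 to 10.00 in WT, also without overlap. These sums were mostly miR-200c, at 10.06 and 9.92 in TG and 9.19 to 9.72 in WT. No other epithelial marker exceeded 5.87 on any array, and miR-200a, miR-200b and miR-203 had negative differences. The part of either cell type in the results on the cluster was not tested.

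The 6 mesenchymal markers, 3 with positive differences, had overlapping sums of 10.7 in both TG arrays and 10.1 to 10.9 in WT, and 0 passed. The endothelial list had 1 tested member of 2, and its sums were lower in TG, 9.34 to 9.37 against 9.50 to 11.2 in WT, with 0 calls. The 8 lung markers had sums of 12.47 and 12.55 in TG and 12.56 to 12.92 in WT, so the TG arrays lay just below the WT arrays, with 2 positive differences and 0 calls. miRNAs of other imprinted regions, mostly of the Sfmbt2 cluster, had 48 probe sets, of which 38 were detected on 0 arrays, 2 were tested and 0 called.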

How the data were processed

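The authors' deposited table holds 1 log2 signal for each of 7625 probe sets on each of 6 arrays. The log base is inferred from values of 3.37 to 13.4. The RNA was a TRIzol extract, labelled with biotin after Affymetrix, per the labels' protocols. How signals were background-corrected, summarized and normalized is not given in the sources used here. Array medians lay between 4.02 and 4.03. No scan date or batch was given.

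Mouse probe sets above the 95th percentile of 1631 plant probe sets on at least 2 arrays were tested, 197 of 609. TG was compared with WT by limma 3.58.1 in R 4.3.3 (lmFit, eBayes), two-sided, without covariates, with Benjamini-Hochberg adjustment over the 197 and a threshold of 0.05. The fit was tested on simulated data. Members follow a rule on miRNA names alone, but the cluster and the lists were picked with earlier results of these data known. A planned permutation test of the number of detected members is not given. Every tested or singly detected member is named, along with the 3 undetected members nearest the limit. The pair of miRNAs compared within arrays, and the other undetected members named, were chosen after their values were seen. Marker lists covered lung, epithelium, mesenchyme, leukocytes, endothelium, neurons, striated muscle and other imprinted miRNAs. Sequences and gene order come from RefSeq tables of GRCm38.p6, since the deposited table names no build. Alternatives changed the filter, the scaling, the variance model, the probe sets and the arrays used.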

Additional observations from a re-analysis of the deposited data

Results flagged for a closer look

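In 2 of the 8 tested members a single WT array stood apart from the other 3, and in both it was WT replicate 2. For miR-127 this array was the highest, at 5.28 beside 4.18 to 4.32, a gap of 0.871 of the WT range. For miR-379 it was the lowest, at 3.87 beside 4.12 to 4.14, a gap of 0.940 of the range, with all 4 values under the detection limit. Chance gives such a gap in about 1 of 20 groups. Both results are given with and without this array above.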

How the results depend on the processing

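The count of 2 called members was 0 without the detection filter (6 members at an unadjusted p under 0.05 by limma), 0 with detection on 4 or more arrays (0 unadjusted, 3 tested) and 0 with quantile normalization (3 unadjusted). It was 1 with the 99th plant percentile and 1 with centring on the tested median, 3 with a mean-variance trend, 3 with array weights, and 2 with plant-median centring, values set to the limit, robust eBayes or averaged probe sets. Leaving out each array in turn gave 0 to 2 members (1 to 4 unadjusted) and 0 to 27 calls over all mouse probe sets. With no filter more probe sets were tested, 609, and with the 99th percentile or 4 arrays fewer, 139 and 144. Where counts of all calls moved by over 1.5 times from 6, they were 1 without the filter, 2 with the 99th percentile, 1 with 4 arrays, 0 with quantile normalization (33 unadjusted), 2 with the tested median, 33 with array weights and 14 with same-name probe sets averaged. The cause was not tested. In those fits in which they were tested, no member other than miR-382 (-0.061) and miR-409-3p (-0.23), both with centring on the tested median, changed sign. The difference in detected members was 2.5 with the 99th percentile, and 5.75 to 7.75 without single arrays. Where a group is left with 1 array, it is assumed to vary like the other.

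The replicate numbers share no stated source, and the array differences between numbers 1 and 2 correlated at r = -0.08 between TG and WT over 197 probe sets. On these 4 arrays the replicate block gave 3 called members and 12 calls in all. The members were miR-127, miR-379 and miR-494, at adjusted p by limma of 0.000898, 0.0352 and 0.0238. That fit leaves 1 residual degree of freedom for each probe set. Its adjusted p for miR-127 is the low end of the range given above. The same arrays without the block gave 0 members (4 unadjusted) and 0 calls (27 unadjusted).

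Precision is limited by the number of arrays and by signals near the detection limit.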
